A study of Homo sapiens with 6 samples.

Results

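MHC class I antigen presentation was described through 9 genes in KYSE450, an established line of human esophageal squamous cell carcinoma. They are the heavy chains HLA-B and HLA-C, the light chain B2M, the transporter chains TAP1 and TAP2, the loading protein TAPBP, the immunoproteasome subunits PSMB8 and PSMB9, and the transactivator NLRC5. The members were chosen by name, and 8 of the 9 names matched a row among the 27887 rows of the expression table. PSMB9 was read only from rows with a number after the name. RNA-seq covered 2 groups of 3 libraries, mock (genotype WT, infected with a mock virus) and shHMGB2 (genotype HMGB2 knockdown, infected with the shHMGB2 virus). All 6 libraries thus came from virus-treated cultures of 1 line, grown in RPMI1640 with fetal bovine serum. Whether the mock virus carried a hairpin, and how many hairpins were used, are not given in the sources used here. No label ties a library to a culture of its own, so a p-value here measures library-to-library spread that may be technical.

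Class I molecules show fragments of a cell's own proteins to CD8+ T cells. The proteasome cuts proteins into peptides, and its variant with the catalytic subunits PSMB8, PSMB9 and PSMB10, the immunoproteasome, is favoured under interferon. TAP1 and TAP2 together pump peptides into the endoplasmic reticulum, where TAPBP (tapasin) holds the empty heavy chain and B2M beside the transporter until a peptide binds. NLRC5 drives transcription of class I genes, and squamous tumours are known to lose class I display in some cases. Most of these genes lie in the MHC region of chromosome 6, for which hg38 also carries alternate versions.

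The sequences before the start sites of 6 members are shown because 3 of these genes rose and 3 did not pass the test, and because TAP1 and PSMB9 start 488 bases apart and are read away from each other. Each is the 250 bases before the outermost RefSeq start (GRCh38.p14), 5′ to 3′ on the gene's own strand. Capitals mark 2 motifs, searched on both strands: GAAA, any 2 bases, GAAA, the spacing that interferon regulatory factors bind, and CCAAT, the core of the box bound by NF-Y in class I promoters (ATTGG where it lies on the other strand). Overlapping matches are merged in capitals.
TAP1 (chr6:32853705-32853954, minus strand): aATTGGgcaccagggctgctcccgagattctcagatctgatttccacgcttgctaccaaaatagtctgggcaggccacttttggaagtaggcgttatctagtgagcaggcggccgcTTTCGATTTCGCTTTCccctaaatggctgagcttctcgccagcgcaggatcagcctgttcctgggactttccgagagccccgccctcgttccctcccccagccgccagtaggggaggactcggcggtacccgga
PSMB9 (chr6:32853942-32854191, plus strand): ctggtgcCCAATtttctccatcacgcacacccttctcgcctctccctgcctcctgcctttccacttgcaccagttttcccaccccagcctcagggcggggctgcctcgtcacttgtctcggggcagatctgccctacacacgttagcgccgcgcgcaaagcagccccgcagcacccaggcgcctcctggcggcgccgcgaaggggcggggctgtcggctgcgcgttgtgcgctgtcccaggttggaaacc
TAPBP (chr6:33314079-33314328, minus strand): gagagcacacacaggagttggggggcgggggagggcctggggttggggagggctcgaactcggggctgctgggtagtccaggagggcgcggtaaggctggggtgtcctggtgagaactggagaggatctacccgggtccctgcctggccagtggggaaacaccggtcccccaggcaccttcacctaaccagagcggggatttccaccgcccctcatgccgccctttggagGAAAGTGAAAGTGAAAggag
TAP2 (chr6:32838740-32838989, minus strand): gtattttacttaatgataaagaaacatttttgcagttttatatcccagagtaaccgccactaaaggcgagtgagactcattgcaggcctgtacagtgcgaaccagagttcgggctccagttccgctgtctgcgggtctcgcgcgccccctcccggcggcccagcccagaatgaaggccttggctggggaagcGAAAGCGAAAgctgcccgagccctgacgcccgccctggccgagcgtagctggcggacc
B2M (chr15:44711267-44711516, plus strand): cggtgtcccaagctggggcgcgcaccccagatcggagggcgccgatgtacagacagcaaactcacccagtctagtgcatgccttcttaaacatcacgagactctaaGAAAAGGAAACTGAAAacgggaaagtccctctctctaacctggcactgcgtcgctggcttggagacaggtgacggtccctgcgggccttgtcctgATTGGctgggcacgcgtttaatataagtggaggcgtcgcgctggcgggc
HLA-B (chr6:31357180-31357429, minus strand): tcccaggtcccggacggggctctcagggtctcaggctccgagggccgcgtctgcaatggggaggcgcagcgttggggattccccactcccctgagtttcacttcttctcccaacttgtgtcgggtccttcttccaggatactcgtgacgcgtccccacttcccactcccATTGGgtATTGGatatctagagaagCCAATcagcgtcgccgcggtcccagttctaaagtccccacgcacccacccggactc

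The GAAA pair was present in 4 of the 8 members with a RefSeq promoter, namely B2M, TAP1, TAP2 and TAPBP, against 3.02% of 35116 promoters in the table. For both motifs a member counts once, by its outermost start, whereas the 35116 promoters include every listed start of a gene. TAP1 and PSMB8 each have 2 listed starts. In TAPBP the nearest pair ended 4 bases before the start, in TAP2 48 bases, in TAP1 118 bases and in B2M 128 bases. CCAAT was present in 5 of 8, HLA-B, HLA-C, B2M, TAP1 and PSMB9, against 32.0% of all promoters. The TAP1 and PSMB9 windows overlap by 13 bases, and the single box of each is the same box on the genome (chr6:32853949-32853953), so it is counted in both. HLA-B held 3 such boxes and HLA-C 4. A match describes letters only, and no factor's binding was measured. Only exact letters were searched, so a window without a marked pair, such as that of HLA-B, may hold a variant of it.

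The hairpin's target was lowered in every shHMGB2 library. HMGB2 stood at 115.8, 111.4 and 108.6 FPKM (fragments scaled to transcript length and library size, the authors' unit) in mock and 22.1, 24.5 and 27.8 FPKM in shHMGB2, a log2 fold change of -2.14 (SE 0.083; adjusted p in limma 1.98e-05). Values written as mean ± SD are over the 3 libraries of a group. Of the table's rows, 2339 carry a number after a gene name already in use (a numbered copy), which split 1401 genes over several rows. Size factors implied by the authors' group values ran from 0.699 to 1.31 between libraries, and summed FPKM from 740683.5 to 829437.1. The library depth in reads is not given in the table. Squamous markers were present, with KRT14 at 135.5 ± 7.71 FPKM (SD, n = 3) in mock and the 9 markers together at 7628 to 7911 FPKM in mock and 6624 to 7342 FPKM in shHMGB2. Of these 9, KRT14, KRT6A and KRT17 fell and SOX2 rose. The last 2 lost the call when mock replicate 2, shHMGB2 replicate 1 or shHMGB2 replicate 2 was left out, KRT17 also without shHMGB2 replicate 3 (adjusted p in limma up to 0.0777 for KRT17 and 0.0819 for SOX2). Leukocyte markers, cells that also carry class I genes, summed to 6.94 to 7.76 FPKM in mock and 4.47 to 4.92 FPKM in shHMGB2. Of 9 leukocyte markers 1 reached 1 FPKM, CD68, which fell, and the pan-leukocyte gene PTPRC stood at 0 to 0.03 FPKM. Fibroblast markers (1 of 6 at 1 FPKM) summed to 2.93 to 3.71 and 4.07 to 4.52 FPKM, and endothelial markers (1 of 4) to 1.87 to 2.58 and 2.39 to 2.77 FPKM, in mock and shHMGB2 respectively. Their part in the class I results was not tested.

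Of the 9 class I genes, 3 rose in shHMGB2, 0 fell and 6 did not pass the test when all rows of a gene were summed to a gene total. The sum was added after the data were seen. The planned fit on rows as deposited called 0 of the 5 own-name rows tested. As gene totals, PSMB9, TAP1 and TAPBP rose by 48.2%, 38.8% and 42.5% of their mock means. Each called gene had all shHMGB2 libraries above all mock libraries, and groups did not overlap for 36.7% of all gene totals. Across all gene totals, 8.73% passed in either direction, 4.49% higher and 4.24% lower. The test was limma on log2(FPKM + 1) with Benjamini-Hochberg adjustment over 12641 gene totals, called at an adjusted p of 0.05. The median log2 fold change was 0.24 over the 9 members and 0.04 over all gene totals. In bulk RNA, a change in the number of expressing cells and in RNA per cell cannot be told apart.

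**Figure D1:**
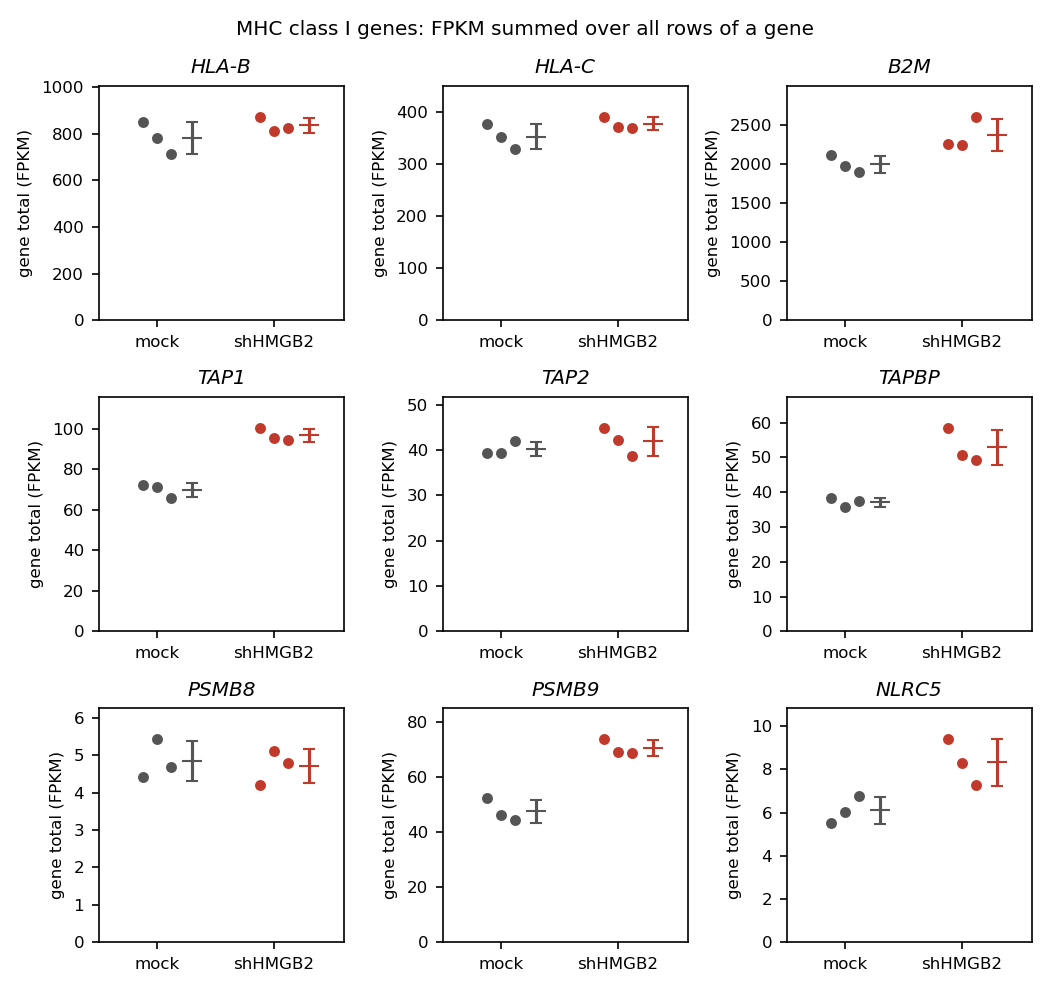
Gene totals in FPKM (y axis, from 0) for the 9 genes in 3 mock and 3 shHMGB2 libraries. Points are libraries in replicate order, and the bar beside them is the mean with SD. The groups do not overlap for B2M, TAP1, TAPBP, PSMB9 and NLRC5, against 36.7% of all gene totals tested.

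The same fit on single rows called none of these genes under its own name. Of the 8 rows named for a member, 5 had a mean of at least 1 FPKM and were tested, and 0 passed in limma (3 at an unadjusted p under 0.05: B2M, TAPBP and NLRC5). Across the 13409 rows tested, 6.75% passed, 3.3% higher and 3.45% lower. The 9 genes took up 45 rows, 37 of them numbered. HLA-B's own row held 0.0890% of its gene total, HLA-C's 0.188% and TAPBP's 2.26%. Of the members' 45 rows, 25 were tested and 2 rose, the PSMB9 row that holds 99.9% of its total and a TAPBP row that holds 27.7%. In the authors' deposited table, 4 of 25 such rows with an adjusted p had one of at most 0.05, all higher, against 15.4% of all rows there. These were NLRC5 (log2 fold change 0.43, adjusted p = 0.00194 in the authors' deposited table), the same PSMB9 and TAPBP rows, and a further TAPBP row.

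TAP1 shows the split most plainly. Its own row had 14.6, 3.17 and 3.55 FPKM in mock and 5.18, 11.1 and 0 FPKM in shHMGB2, with no order between the groups. Of its 7 rows, the 6 with at least 1 FPKM on average had a within-group SD of 0.93 to 2.13 on the log2(FPKM + 1) scale. The SD of the TAP1 total on that scale was 0.062. Different rows led in different libraries while their sum stayed within 65.7 to 72.1 FPKM in mock and 94.4 to 100.5 FPKM in shHMGB2. The log2 fold change of the own-name TAP1 row was -0.66, with a 95% interval of -2.79 to 1.46, opposite in sign to the TAP1 total.

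**Figure D2:**
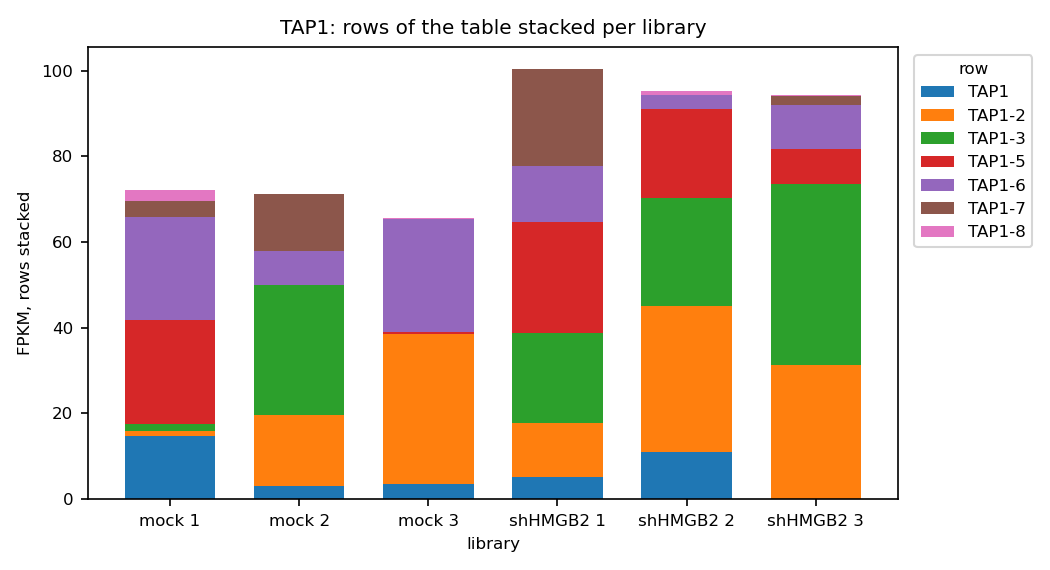
FPKM of the 7 TAP1 rows stacked for each library (x axis), so that the bar height is the gene total. The colours change from library to library, whereas the heights run from 65.7 to 72.1 FPKM in mock and from 94.4 to 100.5 FPKM in shHMGB2.

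Among the peptide transporter genes, TAP1 rose and TAP2 did not pass. TAP1 totals were 72.1, 71.2 and 65.7 FPKM in mock and 100.5, 95.2 and 94.4 FPKM in shHMGB2. Every shHMGB2 library lay above every mock library, and the SD was 3.49 FPKM in mock and 3.32 FPKM in shHMGB2. The log2 fold change was 0.47 (SE 0.061; adjusted p in limma 0.00337). TAP2, the other chain of the transporter, had 39.4, 39.4 and 42.1 FPKM in mock and 45.0, 42.2 and 38.6 FPKM in shHMGB2. Its libraries overlapped, with a log2 fold change of 0.05 and a 95% interval of -0.11 to 0.22 (limma adjusted p = 0.635). TAP2 was hardly split, since its own row held 98.8% of the total. The ratio of TAP1 to TAP2 was 1.73 ± 0.15 (SD, n = 3) in mock against 2.31 ± 0.11 (SD, n = 3) in shHMGB2, with no overlap. TAP1 lies at chr6:32845209-32853704 and TAP2 at chr6:32821831-32838739, both on the minus strand (GRCh38).

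TAPBP, which bridges the transporter and the heavy chain, rose. Its totals were 38.3, 35.7 and 37.4 FPKM in mock and 58.6, 50.6 and 49.4 FPKM in shHMGB2. shHMGB2 replicate 1 was the highest library, and the lowest shHMGB2 library still lay above the highest mock library. The log2 fold change was 0.50 (SE 0.076; adjusted p in limma 0.00748). TAPBP lies at chr6:33299694-33314078 on the minus strand. Its 4 rows all had a higher mean in shHMGB2, and the 3 numbered ones held nearly all of the total.

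The immunoproteasome subunits differed from each other. PSMB9 had 52.3, 46.1 and 44.3 FPKM in mock and 73.9, 69.0 and 68.6 FPKM in shHMGB2. No library of one group reached the other, and the log2 fold change was 0.56 (SE 0.074; adjusted p in limma 0.00353), the largest of the 9 totals. PSMB8 was low, at 4.42, 5.44 and 4.68 FPKM in mock and 4.21, 5.12 and 4.78 FPKM in shHMGB2. The PSMB8 groups overlapped, with a log2 fold change of -0.04 and a 95% interval of -0.26 to 0.19 (limma adjusted p = 0.835). PSMB8 was spread over 8 rows, each under the filter of 1 FPKM, and 7 of them held the same share, 12.6% of the total. Its authors' normalized level, summed over rows and averaged over both groups, was 109, against 981 for PSMB9. PSMB10, the third inducible subunit and no member, had 38.7 ± 4.76 and 46.8 ± 2.88 FPKM and did not pass (log2 fold change 0.27, limma adjusted p = 0.0936).

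Both PSMB8, at chr6:32840717-32844679 on the minus strand, and PSMB9, at chr6:32854192-32859851 on the plus strand, overlap other genes on the opposite strand in GENCODE 29. There PSMB9 overlaps both PSMB8 and TAP1, so the called genes TAP1 and PSMB9 overlap each other. The long non-coding RNA PSMB8-AS1 overlaps PSMB8, PSMB9 and TAP1 there. No source used here says whether counting used strand, so reads of overlapping genes may be shared. PSMB8-AS1 had 2.38 ± 0.33 FPKM in mock and 3.36 ± 0.39 FPKM in shHMGB2 and did not pass (limma adjusted p = 0.0677), and its part in the totals of TAP1 and PSMB9 was not tested.

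Each inducible subunit replaces a constitutive one in the assembled proteasome, PSMB9 for PSMB6, PSMB8 for PSMB5 and PSMB10 for PSMB7. The ratio of PSMB9 to PSMB6 in FPKM was 0.183, 0.192 and 0.188 in mock and 0.295, 0.289 and 0.268 in shHMGB2. That of PSMB10 to PSMB7 was 0.104 ± 0.0047 in mock and 0.144 ± 0.011 in shHMGB2, also without overlap. The ratio of PSMB8 to PSMB5 overlapped, at 0.0218 ± 0.0037 and 0.0252 ± 0.0027. These ratios are descriptions with no test. PSMB6 itself had 253.8 ± 27.6 and 248.3 ± 8.80 FPKM (limma adjusted p = 0.852), and PSMB5 224.1 ± 17.9 and 187.0 ± 4.87 FPKM (limma adjusted p = 0.0555). PSMB7 had 372.7 ± 31.9 and 324.2 ± 7.61 FPKM, lower without overlap but without passing (limma adjusted p = 0.117). The groups of PSMB10 itself overlapped.

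**Figure D3:**
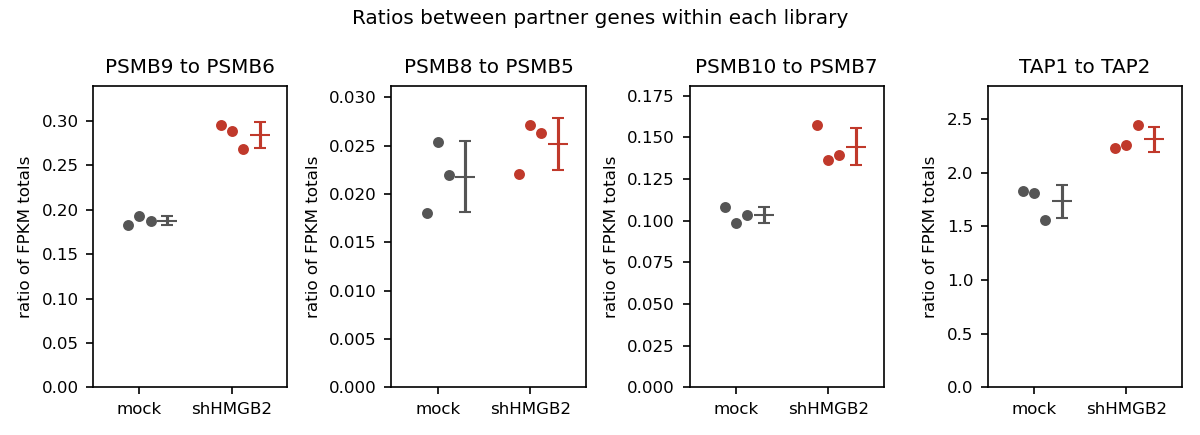
Ratios of FPKM totals within each library (y axes, from 0) for 3 pairs of inducible and constitutive proteasome subunits and for TAP1 to TAP2. Points are libraries and bars are means with SD. PSMB9 to PSMB6 went from 0.188 ± 0.0047 to 0.284 ± 0.014, and PSMB8 to PSMB5 overlapped between the groups.

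The heavy chains were abundant and did not pass. HLA-B totals were 849.5, 782.5 and 713.6 FPKM in mock and 873.7, 810.7 and 823.7 FPKM in shHMGB2. Its groups overlapped, with a log2 fold change of 0.10 and a 95% interval of -0.08 to 0.28 (limma adjusted p = 0.430). HLA-C totals were 376.8, 351.6 and 328.9 FPKM in mock and 391.0, 371.9 and 369.9 FPKM in shHMGB2. The highest mock library lay between the shHMGB2 libraries, and the log2 fold change was 0.10 with a 95% interval of -0.05 to 0.26 (limma adjusted p = 0.351). HLA-B lies at chr6:31353875-31357179 and HLA-C at chr6:31268749-31272092, both on the minus strand. Unlike these RefSeq positions, those of GENCODE 29 overlap each other on that strand. The genes are close relatives, and 2.12% of the 50-base words of HLA-B coding transcripts and 6.17% of those of HLA-C occur in other HLA genes of GENCODE 29, so some reads could be assigned to either. These are reference alleles, and the alleles of KYSE450 were not analysed here.

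B2M, the light chain shared by all class I heavy chains, had non-overlapping groups but did not pass. Its totals were 2115, 1973 and 1903 FPKM in mock and 2262, 2240 and 2608 FPKM in shHMGB2. shHMGB2 replicate 3 stood highest. The log2 fold change was 0.24 (SE 0.086, 95% interval 0.05 to 0.44, limma adjusted p = 0.106), and groups that do not overlap were found for 36.7% of all gene totals. B2M passed under quantile normalization (limma adjusted p = 0.0103) and with library weights (limma adjusted p = 0.0114). The fit with library weights called 4430 gene totals. In the other 14 settings B2M did not pass. Without shHMGB2 replicate 3 its log2 fold change was 0.17 (limma adjusted p = 0.299). B2M lies at chr15:44711517-44718145 on the plus strand, and its 2 rows held 50.8% and 49.2% of the total.

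NLRC5, the transactivator, lay just outside the threshold. It had 5.51, 6.03 and 6.77 FPKM in mock and 9.42, 8.30 and 7.26 FPKM in shHMGB2. The groups did not overlap, with shHMGB2 replicate 1 the highest and shHMGB2 replicate 3 closest to mock. The log2 fold change was 0.39 (SE 0.11, 95% interval 0.15 to 0.63, limma adjusted p = 0.0554 among gene totals and 0.0721 among rows). NLRC5 passed without mock replicate 3 (limma adjusted p = 0.0449) and with a filter of 5 FPKM (limma adjusted p = 0.0444). It also passed with library weights (limma adjusted p = 0.00605), a fit that called 4430 gene totals. In the other 13 settings NLRC5 did not pass. There the limma adjusted p was 0.108 with a replicate block, 0.151 with no filter and up to 0.163 without single libraries. NLRC5 has 1 row and lies at chr16:56989557-57083520 on the plus strand.

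Ordered by gene total in mock, per length, B2M was followed by HLA-B, HLA-C, TAP1, PSMB9, TAP2, TAPBP, NLRC5 and PSMB8, and no neighbours in that order overlapped among mock libraries. In shHMGB2 the order was the same except that TAPBP, at 52.9 ± 5.00 FPKM, stood above TAP2, at 41.9 ± 3.18 FPKM.

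**Figure D4:**
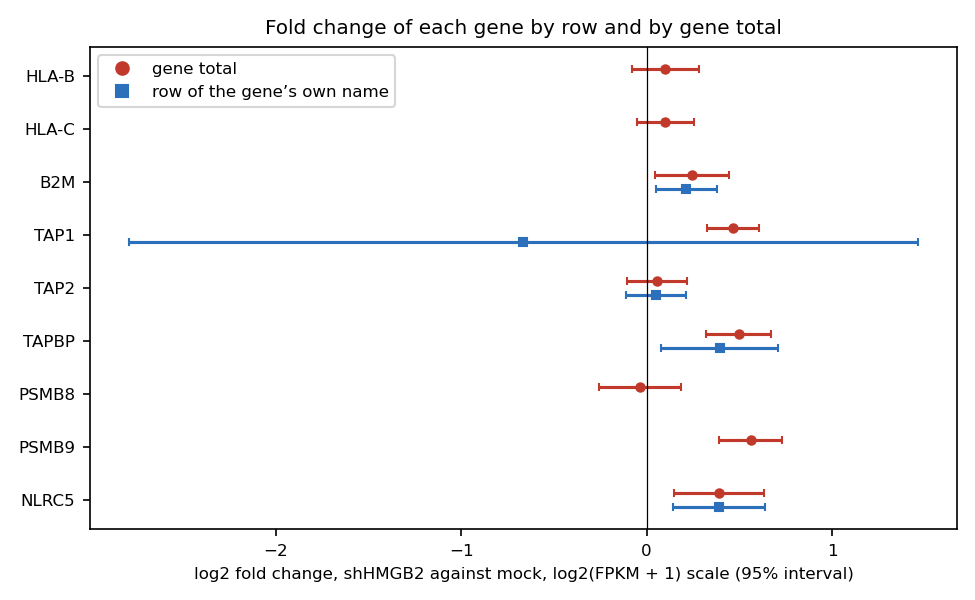
Log2 fold change of shHMGB2 against mock on the log2(FPKM + 1) scale (x axis) with its 95% interval, for each gene as a gene total (circles) and, where tested, as the row of its own name (squares). Intervals of the totals of TAP1, TAPBP and PSMB9 run from 0.33 to 0.61, 0.32 to 0.67 and 0.39 to 0.73, whereas the TAP1 row runs from -2.79 to 1.46.

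Other genes of the pathway were read as gene totals from 9 lists with 93 genes, 79 of them tested, of which 13 rose, 5 fell and 61 did not pass, members included. Against the background of 4.49% higher and 4.24% lower, these shares are descriptions and not tests of the lists. Among 12 genes of peptide loading and handling in the endoplasmic reticulum, 4 rose, 1 fell and 7 missed the threshold. Their median log2 fold change was 0.27. Beside TAP1 and TAPBP, the rises were ERAP1 and ERAP2, the aminopeptidases that trim peptides to class I length, and these 2 also passed as rows of their own name. ERAP2 went from 9.39, 10.7 and 11.7 FPKM to 18.1, 17.9 and 17.7 FPKM (log2 fold change 0.71, SE 0.081, limma adjusted p = 0.00192). The ERAP2 level in shHMGB2 varied by an SD of 0.201 FPKM and lay above all mock libraries. ERAP1 went from 17.2 ± 1.64 to 24.5 ± 1.45 FPKM (limma adjusted p = 0.0105; 0.0556 without shHMGB2 replicate 1). SEC61A1, a channel subunit of the endoplasmic reticulum, fell from 101.3, 98.0 and 102.2 FPKM to 81.0, 78.7 and 79.8 FPKM (limma adjusted p = 0.00919; 0.0515 without shHMGB2 replicate 2).

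Proteasome genes moved in few members. In the list of 7 immunoproteasome genes and activators 2 rose, PSMB9 and PSME2, 0 fell and 5 missed the threshold (median log2 fold change 0.20). PSME2, an activator subunit, went from 232.4 ± 15.5 to 279.0 ± 10.2 FPKM (limma adjusted p = 0.0477). That PSME2 call was lost without any single library except mock replicate 1 (limma adjusted p up to 0.152). Of 14 constitutive 20S subunits, 1 fell, 0 rose and 13 missed the threshold (median log2 fold change -0.08). PSMB2, a beta-ring subunit of the core particle, fell from 64.1, 61.6 and 57.2 FPKM to 35.1, 35.3 and 37.9 FPKM (log2 fold change -0.74, SE 0.066, limma adjusted p = 0.000675). Among 7 cytosolic peptidases, LAP3 and NPEPPS, both aminopeptidases, rose and BLMH, bleomycin hydrolase, fell, and 4 did not pass (median 0.22). BLMH went from 16.5 ± 0.429 to 11.1 ± 0.877 FPKM (limma adjusted p = 0.00395). LAP3 and NPEPPS had limma adjusted p of 0.0219 and 0.0235, and lost the call without mock replicate 2 or shHMGB2 replicate 2 or 3 (NPEPPS also without shHMGB2 replicate 1), with limma adjusted p up to 0.0937 and 0.107.

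Among 16 regulators of class I transcription, 2 rose, 0 fell and 14 missed the threshold (median log2 fold change 0.14). STAT2, a factor of type I interferon signalling, went from 28.6, 34.2 and 32.7 FPKM to 53.3, 47.0 and 48.6 FPKM (limma adjusted p = 0.00336). RFX5, a subunit of the factor on the X box of MHC promoters with which NLRC5 works, went from 27.1 ± 2.42 to 37.9 ± 1.18 FPKM (limma adjusted p = 0.0088). IRF1, an interferon regulatory factor, had 15.4 ± 1.55 and 16.6 ± 0.47 FPKM (limma adjusted p = 0.380). In the interferon gamma receptor list, 2 of 7 tested rose, JAK1 and SOCS1, a kinase and a feedback inhibitor of the receptor, and 1 fell, the receptor chain IFNGR2. Their log2 fold changes were 0.36, 0.59 and -0.23, with limma adjusted p of 0.0191, 0.0183 and 0.0378. JAK1 lost the call without any single shHMGB2 library, SOCS1 when mock replicate 2, shHMGB2 replicate 1 or shHMGB2 replicate 2 was left out, and IFNGR2 without any single library except mock replicate 1 (limma adjusted p up to 0.0761, 0.0808 and 0.147).

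Of 11 heavy chain and class I-like genes, B2M included, 8 were tested and 1 rose, HFE, a class I-like protein of iron balance, from 4.96 ± 0.647 to 7.50 ± 0.199 FPKM (limma adjusted p = 0.0122). The HFE call was lost, with an adjusted p in limma of up to 0.0634, when mock replicate 2, shHMGB2 replicate 1 or shHMGB2 replicate 3 was left out. HLA-E and HLA-F, nonclassical class I molecules, had 125.1 ± 4.52 and 73.7 ± 3.39 FPKM in mock and 138.4 ± 3.68 and 83.3 ± 4.30 FPKM in shHMGB2, without overlap but without passing (limma adjusted p = 0.132 and 0.119). HLA-E was split over 7 rows whose within-group SD on the log2(FPKM + 1) scale reached 2.23, against 0.046 for the HLA-E total.

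**Figure D5:**
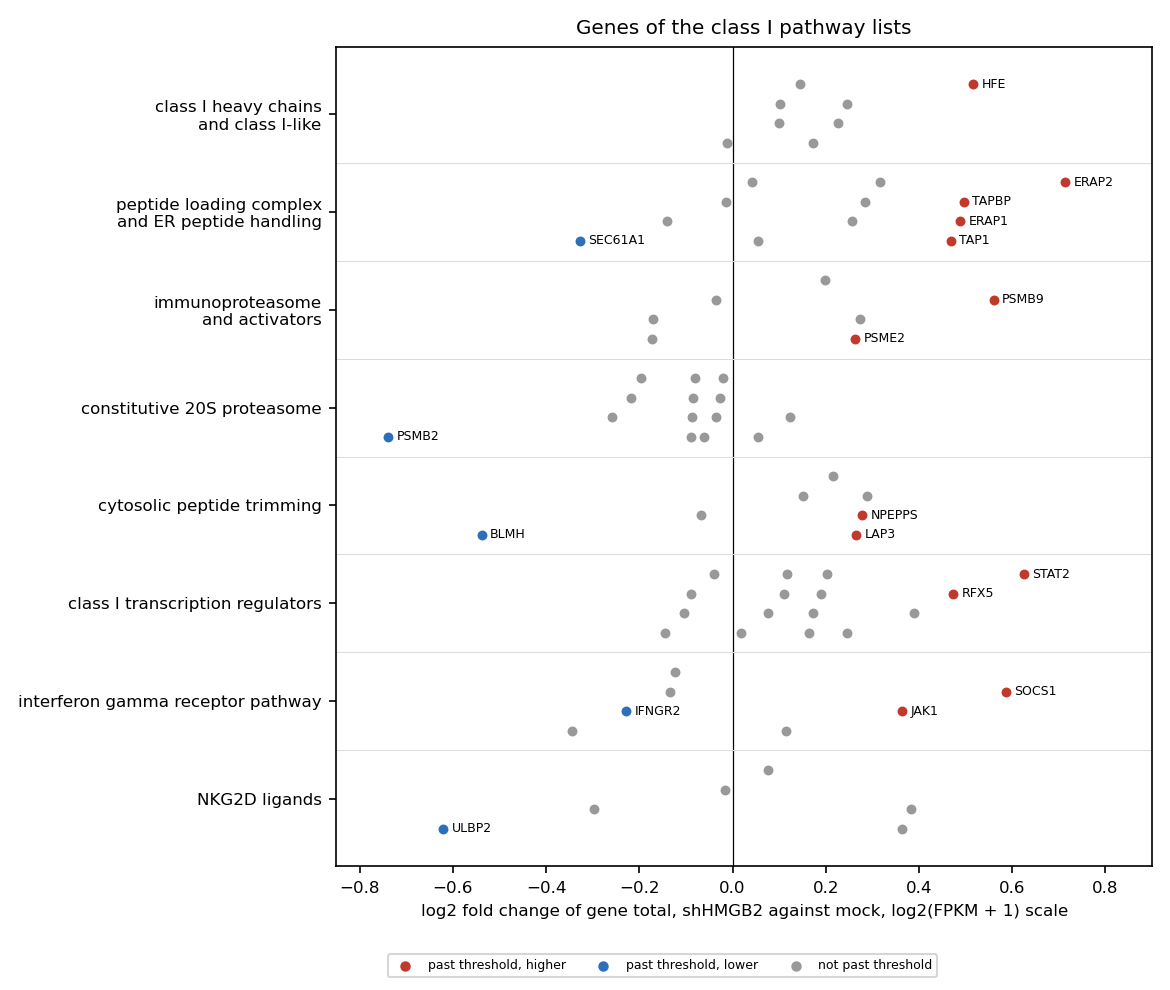
Log2 fold change of gene totals, shHMGB2 against mock, on the log2(FPKM + 1) scale (x axis) for the tested genes of 8 lists (y axis; vertical offsets within a list only separate points). Coloured points are past the limma threshold, with 13 higher and 5 lower, and grey points are not.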

How the data were processed

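RNA-seq libraries were made from total RNA with an mRNA kit, per the labels' protocols. The submitters' processing notes list Bowtie2 2.2.5, RSEM 1.2.12 and the build hg38, with no role or order. The authors deposited 1 table with FPKM per library, per the file headers. It also holds the authors' normalized group signal, their log2 fold change, and their p-value and adjusted p-value from a test not given in the sources used here. In 2662 genes seen in 1 library, 100% of the authors' group values were multiples of 1 unit per library (tolerance 0.01), which gave the size factors; FPKM was not turned into reads and no count test was run.

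A row was taken as a numbered copy where its full name is no RefSeq symbol but the name without its number is a symbol or a row; copies were summed to 25688 gene totals. This sum was added after the data were seen, whereas rows as deposited were the planned result. log2(FPKM + 1) was fitted with limma 3.58.1 in R 4.3.3 (group as the single term, mean-variance trend, 2-sided) for rows or totals averaging 1 FPKM or more across 6 libraries, with Benjamini-Hochberg adjustment over all of them; fold changes of low genes are understated. The fit was tested on simulated data. Members and lists were chosen with earlier results of these data known. Of the listed genes, 1 is not reported here. Named genes are the members, HMGB2, called genes of each list (at most 4, otherwise the smallest p), partner genes by role, and the 3 nearest profiles of HLA-B, B2M and TAP1; marker genes, the antisense gene and list members beyond these were named after their values were seen. No pairing by replicate number was detected, as same-numbered deviations correlated at -0.012, -0.038 and -0.096 over genes. With 3 libraries per group this check could miss a pairing. Alternatives covered pseudocount, filter, scaling, variance model, library weights, a fit with the replicate number as a block, and omission of single libraries. Positions and promoters are from RefSeq on GRCh38.p14, and strands and overlaps from GENCODE 29.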

Additional observations from a re-analysis of the deposited data

How the results depend on the processing

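The calls of TAP1, TAPBP and PSMB9 as gene totals held in each of the 16 other settings run, and the number of gene totals called higher was 5 with library weights and 3 to 4 without single libraries; 0 were lower in any setting. Among own-name rows, 0 members were higher without any single library, 1 under quantile normalization, 3 with library weights and 3 once copies were summed. The own-name TAP1 row changed sign with library weights (0.0558), with copies summed (0.47) and without shHMGB2 replicate 3 (0.37). Without any other single library its log2 fold change stayed negative (-1.42 to -0.0497). In the other settings it ran from -1.63 (pseudocount 0.1) to -0.25 (pseudocount 5), with -0.66 in the planned fit. The TAP2 row ran from -0.0029 to 0.10 and the PSMB8 total from -0.0878 to 0.0365 without single libraries. Across all genes, 905 rows were called, but 412 with no filter, 4194 with library weights and 288 to 868 without single libraries; 1103 gene totals were called, but 448, 4430 and 390 to 1280. Among fits without single libraries, the lowest counts of totals came without shHMGB2 replicate 1 (390), shHMGB2 replicate 2 (409), mock replicate 2 (411) and shHMGB2 replicate 3 (465), and those of rows without the same 4 libraries (310, 288, 323 and 311). Median-of-ratios scaling split the calls into 349 higher and 571 lower rows (442 and 463 as deposited) and into 436 and 693 totals (567 and 536 as deposited). The cause of these differences was not tested.

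With a replicate block, 372 rows and 638 totals were called, and the same 3 of the 9 gene totals passed; among own-name rows 0 passed in limma. The blocked calls lost PSME2, LAP3, NPEPPS, IFNGR2 and the marker SOX2 (limma adjusted p = 0.0806, 0.0585, 0.0611, 0.0829 and 0.0542), and no other call among the listed genes. With no filter the calls of HFE, PSME2, JAK1, SOCS1, KRT17 and SOX2 were lost (limma adjusted p = 0.0567, 0.108, 0.0543, 0.0821, 0.0775 and 0.0751). PSME2 was also lost under upper-quartile scaling, median-of-ratios scaling and with no mean-variance trend (limma adjusted p = 0.0550, 0.0963 and 0.0656), and IFNGR2 with no trend (limma adjusted p = 0.0582). No library correlated best with the library of its own number. Depth in reads is not known.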

Other observations

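Class II genes and NKG2D ligands, read as gene totals, stood beside the class I genes as follows. Of 10 genes of class II presentation, which professional antigen-presenting cells use, 2 reached 1 FPKM and 0 passed in limma (1 at an unadjusted p under 0.05, HLA-DRA). HLA-DRA had 1.09, 0.91 and 1.12 FPKM in mock and 2.01, 1.68 and 1.26 FPKM in shHMGB2 (limma adjusted p = 0.0923). The class II transactivator CIITA averaged 0.457 FPKM in mock and 0.543 FPKM in shHMGB2. Of 8 NKG2D ligands, stress molecules read by natural killer cells, 6 were tested and 1 fell, ULBP2. Across all gene totals 4.49% passed higher and 4.24% lower, and these counts are no test of the lists. ULBP2 went from 13.1, 12.6 and 13.3 FPKM to 8.57, 7.15 and 8.59 FPKM (log2 fold change -0.62, SE 0.082, limma adjusted p = 0.00347), and the call held without each single library. MICA had 30.1 ± 2.73 and 29.7 ± 0.813 FPKM, and MICB 3.01 ± 0.52 and 4.20 ± 0.276 FPKM (SDs over 3 libraries), with adjusted p in limma of 0.904 and 0.062.

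Likeness of profile was measured as the root mean square distance over 6 libraries between centred log2(FPKM + 1) gene totals. Candidates were genes with a RefSeq symbol and a mean of at least 5 FPKM. The members themselves were left out, so no member could appear as a nearest profile. The nearest to TAP1 were SP110, SHFL and PARP10 (distances 0.027, 0.034 and 0.035), against a root mean square of 0.24 for TAP1 about its own mean. SP110 went from a mean of 21.6 to 30.4 FPKM. The nearest to B2M were ZSCAN16, LYPD6B and RPA2 (0.020, 0.030 and 0.034), and the nearest to HLA-B were TYMP, MAN1B1 and AOPEP (0.018, 0.018 and 0.019). The distances are descriptions of 6 libraries.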
